A study of Danio rerio with 9 samples.

Results

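This report describes 83 zebrafish (Danio rerio) genes with late onset of labelled RNA, 0.880% of the 9436 genes in the deposited per-stage table. They were chosen from the authors' deposited FPKM per stage over labelled libraries: at least 5 FPKM at the 512-cell stage, a 512-cell value at least 16 times the 128-cell value after 0.1 FPKM was added to both, and a 256-cell value under 0.2 of the 512-cell value. FPKM scales the number of sequenced fragments to the length of the transcript and the yield of the library. Only lower-numbered Ensembl IDs, below ENSDARG00000080000, were taken, which is what "long-annotated" stands for here, and 17 genes that met the thresholds were left out by symbol. The values that chose the genes are the labelled stage values, so differences between labelled stages describe the choice and are not tested as findings.

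The libraries came from AB wild-type embryos at 3 early stages. Labelled 128-cell, 256-cell and 512-cell groups hold 2 libraries each, which the labels call technical replicates, from embryos that received a 1 nl injection of the modified nucleotide 4-thio-UTP (stock 50 mM) at the 1-cell stage. Unlabelled 128-cell, 256-cell and 512-cell groups hold 1 library each and went through the same biotin and streptavidin purification. The labels print the injection protocol for them too and do not say if a mock injection was given. The number of embryos pooled per library is not stated, and p-values below measure technical spread only. Whole embryos were used, so more cells making an RNA and more RNA per cell cannot be told apart.

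Early fish embryos divide on maternal RNA and protein, and the zygotic genome is switched on during the cleavage and blastula stages. Uridine carrying a sulphur atom is built into RNA made after injection, which lets new transcripts be pulled out from the maternal pool; some maternal RNA is carried over. Many of the first genes switched on in fish embryos encode regulators of cell fate and cell movement.

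Of the 83 genes, 65 have a symbol in the reference table and 18 do not; 8 of the symbols are clone-type names. By known role, 19 encode regulators of transcription, 4 receptors, 3 secreted or membrane-bound ligands, 5 adhesion molecules or extracellular proteins, 9 small GTPases, their regulators or kinase-linked proteins, and 6 proteins of RNA processing and translation. Another 11 have other roles. Symbols in capitals are printed as the table gives them, and where it gives a human-style symbol it does not say which fish copy is meant.

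In labelled RNA the median member had 0.229 and 0.171 FPKM at the 128-cell stage, 3.21 and 0.994 FPKM at the 256-cell stage, and 17.6 and 5.21 FPKM at the 512-cell stage. In unlabelled RNA the median member had 0.0843, 0.0673 and 0.114 FPKM at the same stages. Over all 8969 genes of the per-library table the medians at the 512-cell stage were 3.10 and 1.42 FPKM in labelled RNA and 0.836 FPKM in unlabelled RNA. The members therefore lay below the typical gene at the 128-cell stage and above it at the 512-cell stage in labelled RNA, and far below it in unlabelled RNA at all 3 stages. At the 512-cell stage the members spanned 4.40 to 320.3 FPKM in replicate 1 and 0.850 to 107 FPKM in replicate 2.

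**Figure D1:**
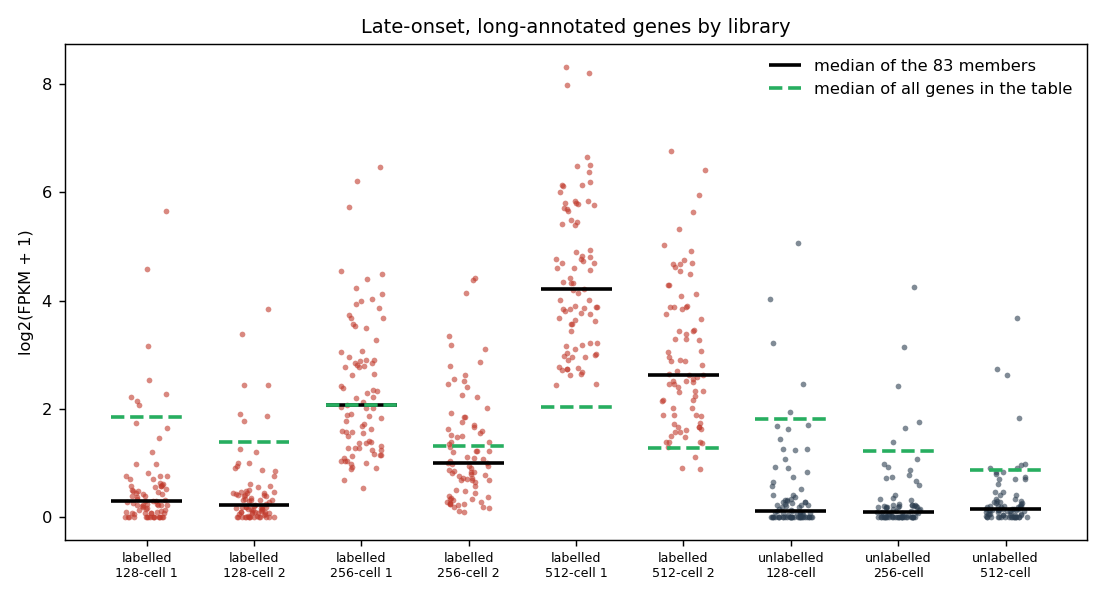
Values of the 83 genes in each of the 9 libraries, as log2(FPKM + 1); each point is a gene, the solid line the median of the members and the dashed line the median of all genes in the table. The members' median lies above the all-gene median in both labelled 512-cell libraries, level with it in labelled 256-cell replicate 1, and near 0 in unlabelled RNA.

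Regulators of transcription were the largest set, and they spanned repressors, homeobox factors and co-activators. ID1, a helix-loop-helix protein that blocks DNA binding by its partners, had 0.705 and 0.536 FPKM (replicates 1 and 2) at 128-cell, then 7.43 and 1.80 at 256-cell, then 69.6 and 23.7 at 512-cell in labelled RNA, against 0.433, 0.0992 and 0 FPKM in unlabelled RNA. The homeobox gene noto, which is needed for the notochord, had 0.189 and 0.251, then 11.8 and 2.41, then 42.9 and 13.8 FPKM in labelled RNA, against 0, 0 and 0.118 FPKM in unlabelled RNA. mych, a fish gene of the Myc family, had 0.966 and 0.817, then 3.93 and 2.59, then 26.2 and 18.6 FPKM in labelled RNA, against 0.878, 0.667 and 0.260 FPKM in unlabelled RNA. In all 3 genes both labelled 512-cell libraries lay above every other library, and mych was among the members whose 2 replicates lay closest together. MYCN, another Myc gene, was lower throughout, with 0.103 and 0, then 0.997 and 0.363, then 5.21 and 1.82 FPKM in labelled RNA, and was listed at 0 in the 3 unlabelled libraries.

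Several of the transcription regulators are known from germ layer and axis patterning. GSC, the organizer homeobox gene, had 0.467 and 0.190, then 4.35 and 0.811, then 15.1 and 3.46 FPKM in labelled RNA, against 0.104, 0 and 0.236 FPKM in unlabelled RNA; its weaker 512-cell library lay below its stronger 256-cell library. GATA2, a zinc-finger factor of ventral ectoderm and blood, had 0.403 and 0.0366, then 2.64 and 0.887, then 13.4 and 4.04 FPKM in labelled RNA, against 0.162, 0.0877 and 0 FPKM in unlabelled RNA. IRX3, an Iroquois homeobox gene of the neural plate, had 0.223 and 0.110, then 6.53 and 1.34, then 19.4 and 5.46 FPKM in labelled RNA, against 0, 0 and 0.117 FPKM in unlabelled RNA. IRX3 also had overlapping 256-cell and 512-cell libraries, whereas those of GATA2 did not overlap. otx2a, a homeobox gene of the anterior brain, was listed at 0 in both labelled 128-cell libraries, with 1.07 and 0.207 FPKM at 256-cell and 6.47 and 1.79 FPKM at 512-cell, against 0.157, 0.0774 and 0.0766 FPKM in unlabelled RNA. TFAP2A, a factor of epidermis and neural crest, had 0.299 and 0.336, then 1.18 and 0.269, then 9.83 and 2.09 FPKM in labelled RNA, against 0.0857, 0.107 and 0.0303 FPKM in unlabelled RNA; its 128-cell and 256-cell libraries overlapped.

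The remaining transcription regulators with listed values were the repressors snai2 and HES3, the bZIP factor atf4b and tsc22d3. snai2, a repressor linked to cell migration, had 1.31 and 1.01, then 5.88 and 1.86, then 25.0 and 7.40 FPKM in labelled RNA, against 1.38, 0.588 and 0.789 FPKM in unlabelled RNA. At the 128-cell stage its labelled libraries lay just below the unlabelled one. atf4b, a bZIP factor of the amino acid and stress response, had 0.118 and 0.145, then 3.35 and 0.916, then 13.5 and 3.97 FPKM in labelled RNA, against 0.0443, 0.0378 and 0.137 FPKM in unlabelled RNA. HES3, a repressor of the hairy family, had 0.309 and 0, then 2.10 and 0.144, then 8.13 and 1.61 FPKM in labelled RNA, against 0, 0 and 0.141 FPKM in unlabelled RNA, with overlap between neighbouring labelled stages. tsc22d3, which encodes a leucine zipper protein induced by glucocorticoids in mammals, had 0.163 and 0, then 0.984 and 0.317, then 4.48 and 2.07 FPKM in labelled RNA, against 0.0639, 0 and 0 FPKM in unlabelled RNA.

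A further 3 members belong to the draculin family of zinc-finger genes, which mark early mesoderm. drll.1 had 0.157 and 0.124, then 13.5 and 2.81, then 56.5 and 13.3 FPKM in labelled RNA, against 0.0843, 0.0202 and 0.0763 FPKM in unlabelled RNA. Its weaker 512-cell library lay just below its stronger 256-cell library. The other two, drl and drll.2, were named after their values were seen; at 512-cell they had 16.6 and 6.05 FPKM and 6.81 and 0.850 FPKM in labelled RNA. These 3 genes lie side by side in the RefSeq gene order of the assembly GRCz12tu, with 0 protein-coding genes between drll.1 and drl and 0 between drll.2 and drl. They were the only members with no gene between them among the 48 members, of 65 with a symbol, that matched that annotation by symbol. Neighbouring copies of 1 family can share reads, and how the authors' counting split them is not stated, so their separate levels are uncertain.

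**Figure D2:**
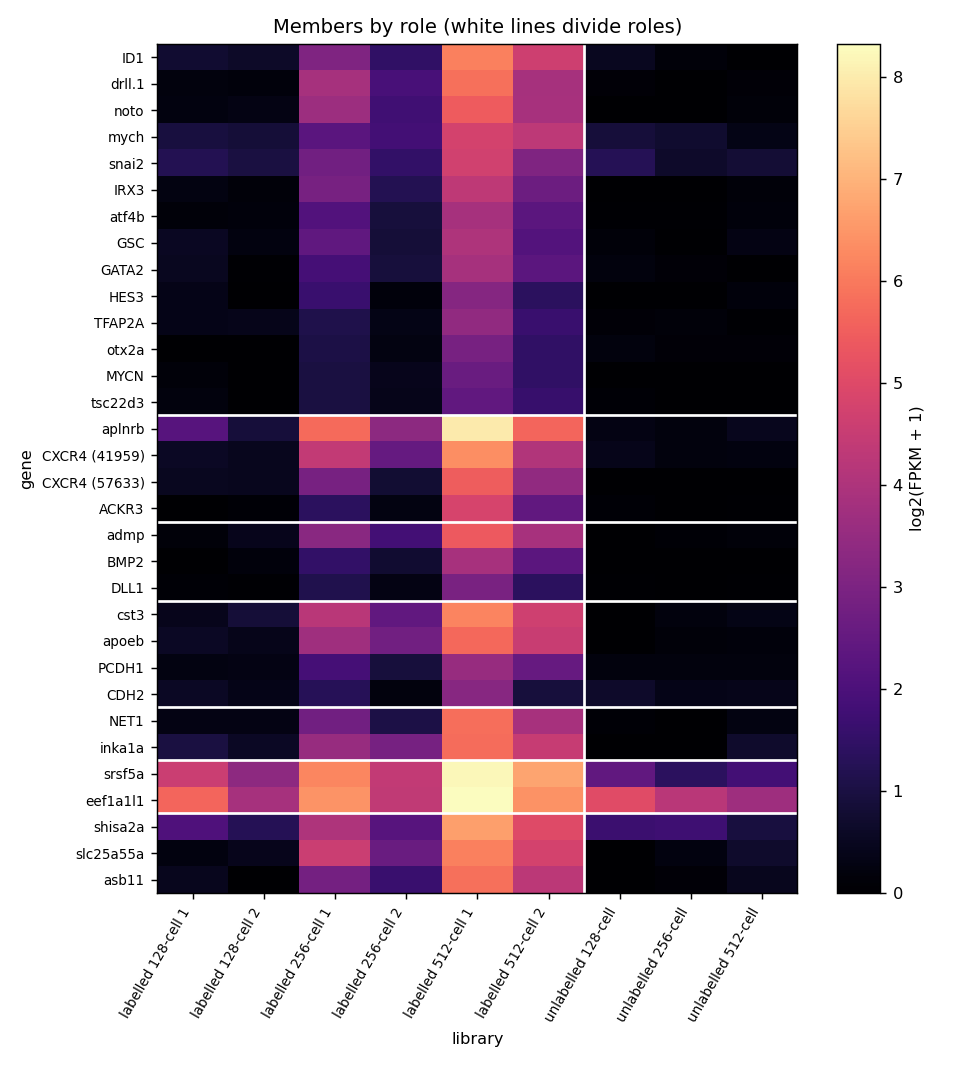
Levels of 32 members in each library as log2(FPKM + 1), lighter for higher, with labelled libraries left of the unlabelled ones and the number after CXCR4 giving the end of its gene ID. Rows follow known role, and labelled 512-cell replicate 1 is the lightest column in every row, with eef1a1l1 and srsf5a also visible in unlabelled RNA.

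All 4 receptors bind peptides or chemokines that guide migrating cells. aplnrb, the apelin receptor needed for cell movement in gastrulation, had 3.68 and 0.879, then 52.2 and 9.20, then 253 and 49.0 FPKM in labelled RNA, against 0.237, 0.158 and 0.383 FPKM in unlabelled RNA. The chemokine receptor gene CXCR4 appears as a pair of gene IDs. ENSDARG00000041959 had 0.484 and 0.395, then 20.2 and 4.69, then 81.8 and 16.1 FPKM in labelled RNA, against 0.336, 0.164 and 0.197 FPKM in unlabelled RNA. ENSDARG00000057633 had 0.427 and 0.384, then 6.51 and 0.719, then 44.0 and 9.89 FPKM in labelled RNA and was listed at 0 in all 3 unlabelled libraries. The 256-cell and 512-cell libraries overlapped for aplnrb and ENSDARG00000041959 and not for ENSDARG00000057633. ACKR3, the scavenging receptor that takes up the ligand of CXCR4, had 0 and 0.0551, then 1.58 and 0.219, then 27.4 and 4.54 FPKM in labelled RNA, against 0.0498, 0 and 0.0398 FPKM in unlabelled RNA. Its 256-cell level was 0.0563 of the 512-cell level on replicate means, the lowest share of the 83.

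The receptors were the members of a list of chemokine and G-protein signalling genes. Of 35 genes of that list tested for labelled against unlabelled RNA at 512-cell, 5 were higher at an adjusted p under 0.05 by limma and 0 lower. Over all tested genes 3.72% were higher and 0.221% lower. The median of the list lay 0.23 log2 units below that of all genes (-0.23). The 5 called genes were the 4 members and apela, which encodes a peptide ligand of the apelin receptor. The rule fixed the labelled 512-cell level of the 4 members, so the count leans on the choice. apela is no member, since its ID is a recent one, and was named after its values were seen. apela (ENSDARG00000094729) had 0.110 and 0.152, then 3.87 and 0.795, then 37.4 and 9.98 FPKM in labelled RNA, against 0, 0.124 and 0 FPKM in unlabelled RNA (limma adjusted p = 0.0153 at 512-cell). Its 512-cell libraries lay above all others.

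Ligands among the members belong to the Bmp and Notch pathways. admp, a Bmp-type ligand made by the organizer, had 0.112 and 0.361, then 8.69 and 2.59, then 41.7 and 13.8 FPKM in labelled RNA, against 0, 0.0602 and 0.114 FPKM in unlabelled RNA. BMP2, a ligand that specifies ventral fates, had 0 and 0.137, then 1.82 and 0.685, then 13.7 and 4.03 FPKM in labelled RNA and was listed at 0 in the 3 unlabelled libraries. DLL1, a Notch ligand, had 0.0578 and 0.0298, then 1.21 and 0.242, then 6.74 and 1.62 FPKM in labelled RNA, against 0.0315, 0 and 0.0251 FPKM in unlabelled RNA. In these 3 genes the 512-cell libraries lay above all 256-cell libraries. Of the 33 tested genes of the Bmp, Nodal and Tgf-beta list 3 were higher in labelled than unlabelled RNA at 512-cell, admp and BMP2 among them, with a list median 0.07 above all genes. Of the 22 tested Notch genes 3 were higher, DLL1 and HES3 not among them, with a list median of -0.05. Over all tested genes 3.72% were higher, and the rule fixed the labelled 512-cell level of the members in both lists.

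**Figure D3:**
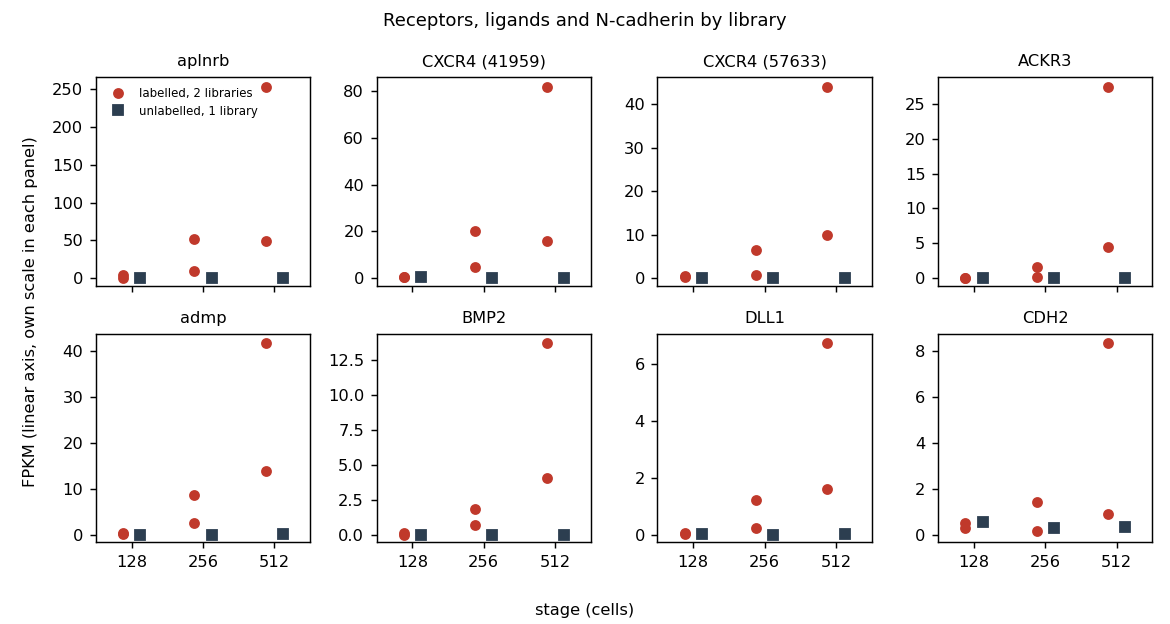
FPKM of 8 members by stage on a linear axis with its own scale in each panel; circles are the 2 labelled libraries and squares the unlabelled library. In each panel the highest value is labelled 512-cell replicate 1, and for CDH2 (N-cadherin) replicate 2 lies near the unlabelled library.

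Adhesion and extracellular genes made up a set of 5. CDH2, the N-cadherin of mesoderm and neural tissue, had 0.495 and 0.305, then 1.43 and 0.162, then 8.35 and 0.884 FPKM in labelled RNA, against 0.576, 0.283 and 0.321 FPKM in unlabelled RNA. PCDH1, a protocadherin, had 0.206 and 0.244, then 2.68 and 0.921, then 10.9 and 4.90 FPKM in labelled RNA, against 0.162, 0.170 and 0.153 FPKM in unlabelled RNA. In CDH2 the 512-cell libraries differed by 9.44-fold and overlapped those of 256-cell, whereas in PCDH1 they did not overlap. cst3, a secreted inhibitor of cysteine proteases, had 0.350 and 0.824, then 17.9 and 4.52, then 72.6 and 24.7 FPKM in labelled RNA, against 0, 0.171 and 0.265 FPKM in unlabelled RNA. apoeb, an apolipoprotein of the yolk syncytial layer, had 0.487 and 0.334, then 12.4 and 5.91, then 51.3 and 22.4 FPKM in labelled RNA, against 0, 0.119 and 0.125 FPKM in unlabelled RNA.

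Small GTPases, their regulators and kinase-linked proteins formed a further set of 9 by known role. All 9 were higher in labelled than in unlabelled RNA at 512-cell by limma (adjusted p under 0.05). So were 51 of all 83 members and 3.72% of all tested genes. The rule fixed the labelled 512-cell level, so this count leans on the choice. NET1, an exchange factor for RhoA, had 0.229 and 0.230, then 5.89 and 1.10, then 54.5 and 13.8 FPKM in labelled RNA, against 0.0611, 0 and 0.202 FPKM in unlabelled RNA. inka1a, whose product inhibits a p21-activated kinase in mammals, had 0.967 and 0.488, then 10.8 and 6.31, then 53.3 and 21.6 FPKM in labelled RNA, against 0, 0 and 0.631 FPKM in unlabelled RNA. The other 7 were the small GTPases RHOV, RALA and arl4ab, the GTPase-activating gene tagapa, the kinase gene pim2, the actin-linked marcksl1a and DEPDC7. The 9 genes had between 5.39 and 54.5 FPKM in labelled 512-cell replicate 1, between 2.71 and 21.6 FPKM in replicate 2, and at most 0.631 FPKM in any unlabelled library.

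The highest 512-cell values belonged to an RNA-processing gene and a translation gene that already had signal at 128-cell, in labelled and in unlabelled RNA. srsf5a, a splicing factor, had 22.9 and 9.43, then 73.4 and 20.4, then 294 and 107 FPKM in labelled RNA, against 4.50, 1.63 and 2.57 FPKM in unlabelled RNA. eef1a1l1, a translation elongation factor, had 49.3 and 13.5, then 87.6 and 19.9, then 320.3 and 84.8 FPKM in labelled RNA, against 32.6, 18.01 and 11.9 FPKM in unlabelled RNA. For eef1a1l1 the weaker labelled 512-cell library lay just below the stronger labelled 256-cell one. Its unlabelled 128-cell library lay between the labelled 128-cell ones, so carry-over and new RNA cannot be told apart there. The RNA-processing list as a whole had 2 of 187 tested genes higher in labelled than unlabelled RNA at 512-cell, with a median 0.57 above all genes. The translation list had 0 of 151 by limma, against 3.72% of all tested genes. Both called RNA-processing genes were members, srsf5a and the poly(A) polymerase gene tent5ba, whose labelled 512-cell level the rule fixed. The polypyrimidine tract binding gene PTBP1, with 13.0 and 2.29 FPKM in labelled RNA and 0.154 FPKM in unlabelled RNA, was not called.

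Of the members with other roles, 3 were among the highest. shisa2a, of a family that holds Wnt and Fgf receptors back inside the cell, had 3.22 and 1.39, then 15.3 and 3.64, then 99.7 and 31.5 FPKM in labelled RNA, against 2.22, 2.37 and 0.967 FPKM in unlabelled RNA. slc25a55a, a mitochondrial carrier, had 0.173 and 0.363, then 22.5 and 5.18, then 68.8 and 26.0 FPKM in labelled RNA, against 0, 0.172 and 0.631 FPKM in unlabelled RNA. asb11, a substrate adaptor for ubiquitin ligases, had 0.402 and 0, then 6.22 and 2.09, then 56.1 and 18.5 FPKM in labelled RNA, against 0, 0.0701 and 0.377 FPKM in unlabelled RNA. The 256-cell values of slc25a55a were 0.292 of the 512-cell ones on replicate means, against 0.111 in asb11. The 18 members without a symbol ranged from 5.55 to 89.7 FPKM in labelled 512-cell replicate 1 and from 1.17 to 61.0 FPKM in replicate 2, and the 8 with clone-type names from 5.76 to 88.6 and from 2.16 to 29.1 FPKM.

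At the 512-cell stage labelled RNA held more of these genes than unlabelled RNA. In all 83 both labelled libraries lay above the unlabelled one, as they did in 73.5% of all genes. By limma on log2(FPKM + 1), 51 of 83 were higher at an adjusted p under 0.05 and 0 lower, against 3.72% of 7697 tested genes higher and 0.221% lower. Here the rule fixed the labelled 512-cell level, so a high count leans on the choice; the unlabelled values were not used by it. The fit compares 2 labelled with 1 unlabelled library, whose spread is taken from that of the labelled technical replicates. The median of all genes in this comparison was 0.73 on the log2 scale, and log2 differences below are given above that median. The p-values test the fitted difference against 0, before that median was taken off. Their size depends on the 1 FPKM added before the log. The median over all 83 members was 2.43, and 4.29 with 0.1 FPKM added instead.

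Members with RNA listed above 0 in the unlabelled 512-cell library numbered 66, and their median difference was 2.65, ranging from 0.94 to 5.62. The other 17 were listed at 0 there and are given no fold. aplnrb was higher by 5.62 ± 1.22 (SE, n = 2 labelled and 1 unlabelled library; limma adjusted p = 0.0180), and srsf5a by 4.92 ± 1.14 (limma adjusted p = 0.0233). apoeb was higher by 4.23 ± 0.72 and mych by 3.47 ± 0.61, both with the smallest limma adjusted p among the 32 members with listed values (adjusted p = 0.00532). The CXCR4 gene ENSDARG00000041959 was higher by 4.25 ± 1.02 (limma adjusted p = 0.0246), and the other, listed at 0 in unlabelled RNA, had a limma adjusted p = 0.0313. These genes belong to different roles, from receptors to a lipoprotein gene.

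**Figure D4:**
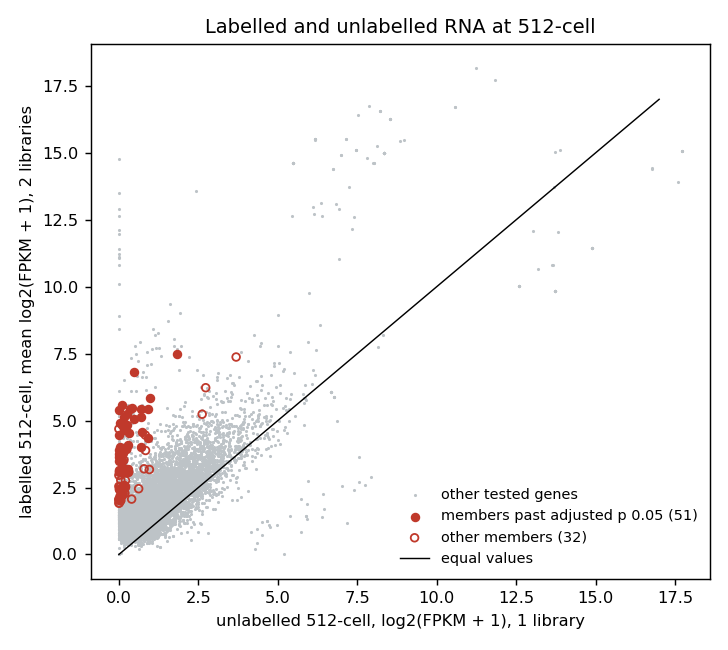
Labelled (mean of 2 libraries) against unlabelled (1 library) 512-cell RNA as log2(FPKM + 1), with the 51 members past the threshold filled, the other 32 members open and other tested genes grey; the line marks equal values. Every member lies above the line, most of them at the left edge, where unlabelled RNA is near 0.

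Among further members with listed values, cst3 was higher by 4.38 ± 0.90, shisa2a by 4.14 ± 1.00, slc25a55a and drll.1 both by 4.01 (± 0.90 and ± 0.95), asb11 by 3.87 ± 0.79, NET1 by 3.85 ± 0.89, noto by 3.78 ± 0.88, admp by 3.77 ± 0.80 and inka1a by 3.70 ± 0.73, each past the threshold by limma. ACKR3 was higher by 2.87 ± 0.84 (limma adjusted p = 0.0442, and 0.0595 with no filter on low genes) and PCDH1 by 2.14 ± 0.60 (limma adjusted p = 0.0269). ID1, BMP2, GATA2 and tsc22d3, all listed at 0 in the unlabelled 512-cell library, passed with limma adjusted p = 0.00645, 0.0256, 0.0342 and 0.0438. Not past the threshold were eef1a1l1 at 2.96 ± 1.36 (limma adjusted p = 0.232), IRX3 at 2.64 ± 0.82 (0.0526), snai2 at 2.32 ± 0.81 (0.0796), atf4b at 2.17 ± 0.70 (0.0525), GSC at 2.05 ± 0.82 (0.110), TFAP2A at 1.76 ± 0.68 (0.0860), DLL1 at 1.41 ± 0.62 (0.105), HES3 at 1.37 ± 0.76 (0.219), otx2a at 1.36 ± 0.59 (0.0971) and CDH2 at 0.94 ± 0.82 (0.402). MYCN, listed at 0 in unlabelled RNA, had a limma adjusted p = 0.0606.

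By role, 9 of 19 transcription regulators, 4 of 4 receptors, 2 of 3 ligands, 3 of 5 adhesion and extracellular genes and 4 of 6 RNA-processing and translation genes were called higher than unlabelled RNA at 512-cell, against 3.72% of all tested genes. The rule fixed the labelled 512-cell level of every member, so these counts lean on the choice and do not set the roles apart from other genes. In the list of transcription factors as a whole, 29 of 275 tested genes were higher and 0 lower, with a median of 0.04 above all genes; 4 of the 29 were members. Of the 54 tested adhesion genes 1 was higher, the member PCDH1. With 1 total over nuclear genes for all libraries 22 of the 83 were higher, and 132 of all genes tested. Without labelled 256-cell replicate 1 it was 78 members and 582 of all genes, and without replicate 2 it was 81 members and 632 of all genes. With size factors 75 passed, and the calls over all genes were 685 higher and 287 lower, against 286 and 17 as deposited.

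Unlabelled RNA of most members was listed at under 1 FPKM. In 70 of the 83 all 3 unlabelled libraries were under 1 FPKM, and 13 reached 1 FPKM in at least 1 of them. Those 13 included eef1a1l1, srsf5a, shisa2a, snai2, the co-activator gene CITED2 and the linker histone gene h1l1. From the unlabelled 128-cell to the unlabelled 512-cell library, which the rule did not use, 32 members had a higher value and 41 a lower one, with 10 listed at 0 in both. Over all genes 6.56% had a higher value in the unlabelled 512-cell library (1 library per stage, no test). The all-gene median was 2.52 FPKM in the unlabelled 128-cell library and 0.836 FPKM in the unlabelled 512-cell one, without scaling between them. The members' medians there were 0.0843 and 0.114 FPKM, near 0, so the order of single libraries says little about them.

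Most members were already above unlabelled RNA at the 256-cell stage. "Late onset" here means only that the per-stage 256-cell value was under 0.2 of the 512-cell value. Both labelled 256-cell libraries lay above the unlabelled 256-cell library in 78 of 83 members, against 53.2% of all genes, and above both labelled 128-cell libraries in 69, against 11.8% of all genes. The 5 exceptions against unlabelled RNA were CDH2, YY1, CITED1, zgc:110425 and ENSDARG00000074631. By limma 0 of 83 were called for labelled against unlabelled RNA at 256-cell, against 1.13% of all tested genes called. At an unadjusted p under 0.05 27 members were higher, against 301 of 7697 tested genes. inka1a had the smallest p of the 83, at 2.79 ± 0.73 above all genes (limma adjusted p = 0.103), followed by apoeb at 2.68 ± 0.72 (0.116), and aplnrb stood at 3.90 ± 1.22 (0.266). Here too the p-values test the fitted difference against 0, before the all-gene median of 0.43 was taken off. The members' median difference was 0.85 above that of all genes, and 0.75 to 0.98 with 1 labelled library left out. With 0.1 FPKM added in place of 1 before the log it was 2.52, so its size depends on that setting.

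At the 128-cell stage the median member had 0.229 and 0.171 FPKM in labelled RNA and 0.0843 FPKM in unlabelled RNA. On the log2(FPKM + 1) scale, where values near 0 differ little, the members' median difference was 0.25 above that of all genes. With 0.1 FPKM added in place of 1 it was 0.57. In 34 of 83 both labelled libraries lay above the unlabelled one, against 16.9% of all genes, and in 14 both lay below it, against 45.1% of all genes. By limma 0 of 83 were called at 128-cell, against 0.078% of tested genes. At an unadjusted p under 0.05 it was 0 members, against 72 genes higher and 134 lower of 7697 tested. The labelled 128-cell level was capped by the rule in relation to the 512-cell level, so a low value here is part of the choice.

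Between labelled stages the counts describe the rule. By limma 68 of the 83 were higher at 512-cell than at 128-cell, against 4.96% of 7438 tested genes, and 0 with 1 nuclear total, where 1 gene of all tested passed. In all 83 the labelled 512-cell libraries lay above the labelled 128-cell ones, against 14.5% of all genes. In 69 they lay above the labelled 256-cell libraries, against 9.76% of all genes. For 512-cell against 256-cell and for 256-cell against 128-cell, limma called 0 members (percent of all genes called, 0 in both). At an unadjusted p under 0.05 71 and 29 members were higher, against 326 and 246 of 7438 tested genes. The 0 depends on the fit: with replicate number as a block, 361 and 234 of all genes were called higher. The members' calls in that fit are given at the end. The members' median difference for 512-cell against 256-cell was 1.87 log2 units above that of all genes. With 1 labelled library left out it ranged from 1.63 to 2.24. For 256-cell against 128-cell it was 1.09, with a range of 0.887 to 1.27. With 0.1 FPKM added in place of 1 before the log, these 2 median differences were 2.36 and 2.45. Which of the 2 steps was the larger therefore depends on that setting.

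How late the members appear depends on which deposited table is read. In the per-stage table the median 256-cell level was 0.132 of the 512-cell level. On the means of the 2 libraries it was 0.203, with a range of 0.0563 to 0.317, and 39 of the 83 stayed under 0.2. The 512-cell values of the per-stage table were a median of 1.49 times the replicate means over all genes, those of 256-cell 1.08 times and those of 128-cell 0.676 times; the scaling is not stated. The 512-cell to 128-cell ratio of the members had a median of 63.9 in the per-stage table and 38.2 on replicate means, where 64 of 83 reached 16. All 3 thresholds together were met by 22 of 83 on replicate means, by 35 in replicate 1 alone and by 24 in replicate 2 alone.

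**Figure D5:**
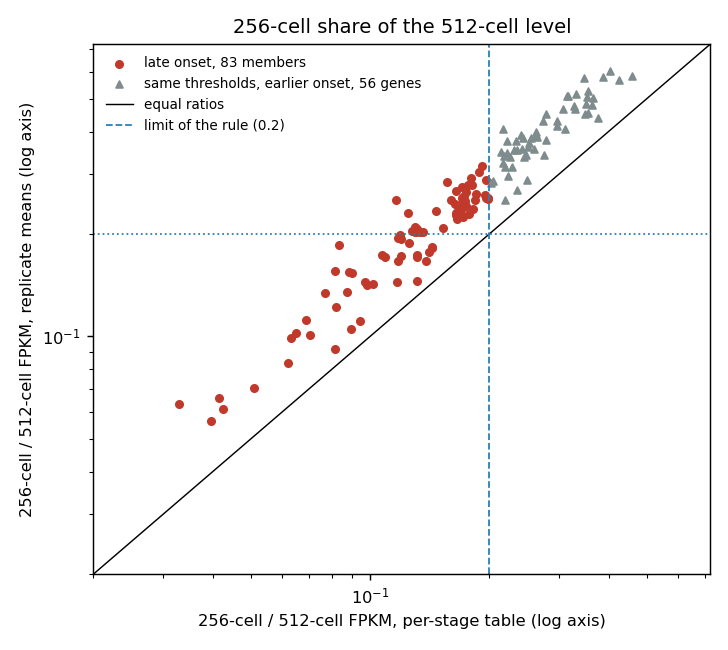
The 256-cell level as a share of the 512-cell level, in the per-stage table (x) and on means of the 2 labelled libraries (y), both on log axes, for the 83 members (circles) and the 56 genes that met the other thresholds but had a share of at least 0.2 (triangles). All points lie above the line of equal ratios, and 39 members lie under 0.2 on both axes.

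Because the 256-cell share chose the members, and the replicates are the same labelled libraries, the shares below only describe the choice. The 56 lower-numbered genes with the same fold and level, the same symbols left out, but a 256-cell share of at least 0.2 had a median share of 0.388 on replicate means, with a range of 0.252 to 0.603, against the members' 0.0563 to 0.317. The 83 members' shares in replicate 1 and 2 had medians of 0.206 and 0.183, and those of the 56 genes 0.395 and 0.377. The 53 genes with higher ID numbers that met the same thresholds had a median share of 0.226 on replicate means. After ACKR3 the lowest shares among members with symbols that are not clone-type were those of MEX3B, an RNA-binding gene, at 0.0632, DEPDC7 at 0.0916 and ID1 at 0.0990; the highest was that of IRX3 at 0.317.

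The members nearest the limits show how narrow some choices were. ADPRM, YY1 and ftr82 were the lowest at 512-cell, with 5.22, 5.24 and 5.31 FPKM in the per-stage table, and RRAD, chrd and rhoaa fell just short with 4.77, 4.68 and 4.66 FPKM. The smallest 512-cell to 128-cell ratios inside were 16.99 for ENSDARG00000036496, 17.1 for eef1a1l1 and 17.8 for zgc:110425, and the largest outside were 15.3 for snai1a, 15.0 for BAMBI and 14.42 for CYP26A1. The highest 256-cell shares inside were 0.199 for ENSDARG00000079203, 0.198 for ENSDARG00000028514 and 0.197 for RALA, and the lowest outside were 0.202 for CAAP1, 0.205 for ENSDARG00000076732 and 0.213 for DUSP6. The genes just outside include regulators of the same kinds, such as the Bmp antagonist gene chrd and the Snail gene snai1a.

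Replicates differed by more in the members than in the typical gene. Replicate 1 lay above replicate 2 in all 83 members at 256-cell and at 512-cell, by a median of 3.59-fold and 3.15-fold, against 2.15-fold and 2.17-fold over all genes. At 128-cell the medians were 1.62-fold in members and 1.61-fold over all genes. At 512-cell the largest gaps were 13.8-fold for si:ch211-152c2.3, 11.6-fold for ENSDARG00000042080 and 9.44-fold for CDH2, and the smallest 1.31-fold for ENSDARG00000027918. si:ch211-152c2.3 had 88.6 and 6.43 FPKM at 512-cell and was listed at 0 in both labelled 128-cell libraries and in all unlabelled ones, and it did not pass against unlabelled RNA (limma adjusted p = 0.0753).

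A property the rule did not use was the number of transcripts. For 48 of the 83 members (57.8%) the gene's 3 stage values equalled those of a single transcript in the deposited table of 11530 transcripts (to 9 decimals), as they did for 5174 of 9436 genes (54.8%). The shares were 62.5% in the 56 genes with earlier onset and 86.8% in the 53 with higher ID numbers. None of the members shared its values in all 9 libraries with another ID, as 94 IDs of the table did.

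Across the whole series, between 4035 and 7416 of 8969 genes had at least 1 FPKM in a library, and the 13 genes of the mitochondrial genome made up 12.8% to 42.7% of all FPKM in labelled and 0.367% to 0.456% in unlabelled libraries. Depth is unknown, so no counting interval is given. Of the cell type marker lists (0 members in any of them), the 6 enveloping layer genes in the table summed to 4.95 to 12.3 FPKM at 128-cell and 228 to 679 FPKM at 512-cell in labelled RNA, against 3.40 to 5.09 FPKM in unlabelled RNA. The 3 yolk syncytial layer genes summed to 2.14 to 10.3 and 85.7 to 577 FPKM, against 0.114 to 0.424 FPKM. Only 1 gene of that list reached 1 FPKM in 2 or more libraries, so its sum does not describe a set. The 22 germ plasm genes summed to 96.3 to 329 FPKM in labelled and 43.9 to 134 FPKM in unlabelled RNA, the 24 oocyte genes to 94.1 to 284 and 76.8 to 204, the 7 muscle-list genes, mostly non-muscle myosins, to 26.2 to 68.9 and 15.2 to 31.1, and the 5 neuron genes to 2.61 to 10.6 and 1.18 to 4.52. No gene of the blood and endothelium list was in the table. Lists were matched by the start of the symbol, so not every gene in them is a marker. The germ plasm list also holds DDX42 and DDX49, the enveloping layer list ANXA11, and the oocyte list CLDND1 and cldnd. The part of these cell types in the members' values was not tested.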

How the data were processed

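Values are FPKM as the authors deposited them, with Cufflinks 2.0.2, TopHat 1.3.3, CASAVA 1.7 and the build Zv9 named, per the submitters' processing notes; annotation version, strand handling, multiple matches and scaling between libraries are not given in the sources used here. A per-library gene table gave 9 libraries, and the per-stage gene and transcript tables hold a single value per stage over labelled libraries, per the file headers. Symbols came from a gene ID table. Tests used genes that reached 1 FPKM in 2 or more of the fitted libraries, on log2(FPKM + 1) with limma 3.58.1 in R 4.3.3 (group means, mean-variance trend, two-sided, Benjamini-Hochberg over all tested genes, threshold 0.05), on 6 labelled libraries for stages and all 9 for labelling; the code was checked on simulated data. A search for common steps between replicates among genes under 0.3 FPKM found at most 3.78% at 1 ratio (within 1%), so reads were not recovered. Members and lists were chosen with earlier results of these data known. Values in every library are given for the 14 members with an ordinary symbol and the highest per-stage 512-cell value, and for members in lists of transcription factors, signalling pathways, chemokine and G-protein receptors and adhesion; others were named after their values were seen. Alternatives were a pseudocount of 0.1, no filter, size factors, 1 nuclear total, replicate number as a block and leaving out each labelled library. Gene neighbours came from the RefSeq annotation of the assembly GRCz12tu, matched by symbol; no sequence or coordinate was used.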

Additional observations from a re-analysis of the deposited data

Results flagged for a closer look

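In 14 members both labelled libraries lay below the unlabelled one at 128-cell and both above it at 512-cell, so the labelling difference points opposite ways at the 2 stages; the difference between stages was not tested, and the rule that chose the members fixes part of it. On the log2(FPKM + 1) scale, from the mean of the labelled libraries, the 128-cell difference (labelled minus unlabelled) was -1.66 for ENSDARG00000028514, which had 3.87 and 4.42 FPKM in labelled and 15.3 FPKM in unlabelled RNA at 128-cell, and 89.7 and 61.0 FPKM in labelled and 5.64 FPKM in unlabelled RNA at 512-cell. It was -0.831 for ENSDARG00000079203, which had 55.2 and 39.3 FPKM in labelled and 0.0764 FPKM in unlabelled RNA at 512-cell, and -0.693 for the co-activator gene CITED1. It was -0.365 for ENSDARG00000074631, -0.334 for ENSDARG00000009737, -0.240 for ENSDARG00000070020 and -0.222 for ENSDARG00000027918. Among genes with a symbol it was -0.210 for otx2a, -0.202 for zgc:174268, -0.171 for CDH2, -0.153 for marcksl1a, -0.142 for snai2, -0.114 for MEX3B and -0.104 for IER5L. Over all genes, both labelled libraries lay below the unlabelled one at 128-cell in 45.1% and above it at 512-cell in 73.5%. The share of all genes with both was not counted. Those 2 shares overlap too far for it to be lower than that in the members, so the pattern is not particular to them. The fitted all-gene median at 128-cell was -0.18 log2 units. Most of the smaller differences above came from values under 1 FPKM, where the 1 FPKM added before the log shrinks them. otx2a, at -0.210, was listed at 0 in both labelled libraries and at 0.157 FPKM in the unlabelled one. The smaller differences therefore cannot be compared in size with that median.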

How the results depend on the processing

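The number of members called higher changed by setting as follows. For 512-cell against 128-cell it was 68 as reported, 0 with 1 nuclear total, and 48 to 79 when 1 labelled library was left out. For 512-cell against 256-cell it was 0 as reported, 55 with size factors and 0 to 54 with 1 library left out. For 256-cell against 128-cell it was 0, 10 with a pseudocount of 0.1, 12 with size factors and 0 to 10 with 1 library left out. For labelled against unlabelled RNA at 512-cell it was 51, 22 with 1 nuclear total and 44 to 81 with 1 library left out; at 256-cell it was 0, 13 with a pseudocount of 0.1, 11 with size factors and 0 to 25 with 1 library left out. At 128-cell it was 0 under the settings without a block. Calls over all genes changed as well, so these counts do not show a change particular to the members. Size factors gave 220 genes higher for 512-cell against 256-cell and 84 for 256-cell against 128-cell, against 0 as reported. A pseudocount of 0.1 gave 82 for 256-cell against 128-cell. Labelled against unlabelled RNA at 256-cell had 87 as reported, 157 with that pseudocount and 100 with size factors. Leaving out a library also moved the all-gene calls. The cause was not tested. No named gene's labelling difference changed sign at a call; with 1 nuclear total 8 named members lost their call at 512-cell. A minimum of 2 or 10 FPKM in the rule gave 97 or 59 members. The single unlabelled library of a stage cannot be left out, and the unknown depth limits what low values can show.

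With replicate number as a block the counts were 83, 77 and 32 for the stage comparisons in the order above, and 83, 68 and 4 for labelled against unlabelled RNA at 512-cell, 256-cell and 128-cell. Over all tested genes this fit called 726, 361 and 234 genes higher for the stages, and 5100, 3511 and 783 higher for labelled RNA, against 369, 0 and 0, and 286, 87 and 6, without the block. Only 2 numbers exist, so the pairing of labelled libraries rests on a shared number. The unlabelled libraries carry no number and were treated as number 1, the higher replicate. The labelled against unlabelled counts in this fit rest on that too, and the all-gene median at 512-cell rose from 0.73 to 1.08. Across genes the replicate deviations correlated at 0.739, 0.660 and 0.762 between stages. They were taken on unscaled values, and replicate 1 was the higher in the median gene at every stage. The correlation therefore cannot show pairing.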
